A study of Mus musculus with 6 samples.

Results

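The 5 genes Thrsp, Dio1, Me1, Klf9 and Hr are classical targets that thyroid hormone switches on, and the sites of a tagged thyroid hormone receptor, TRβ1, around them were read from 3 deposited peak lists. A fixed window was taken around each gene on the mouse build mm9, and every peak with its midpoint in a window was counted as a member. The windows were chr7:104510000-104620000 for Thrsp, chr4:106910000-107030000 for Dio1, chr9:86420000-86650000 for Me1, chr19:23160000-23300000 for Klf9 and chr14:70900000-71030000 for Hr, 730 kb in all. They held 118 of the 98191 peaks in the lists, 61 from TRb PTU, 57 from TRb T3 and 0 from GFP PTU. Positions are 1-based.

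The study captured biotinylated TRβ1 from mouse liver chromatin on streptavidin and sequenced the bound DNA (ChIP-seq). All animals were 9 to 10 weeks old, were heterozygous for BirA, the ligase that attaches biotin to the tagged receptor, and ate propylthiouracil (PTU), a blocker of thyroid hormone synthesis, for 3 weeks. They then received an adenovirus through the tail vein and injections into the abdomen for 4 days. GFP PTU livers had virus for GFP alone and saline, TRb PTU livers had virus for GFP with biotinylated TRβ1 and saline, and TRb T3 livers had the same receptor virus and triiodothyronine (T3), the active hormone. Each condition had 1 library, and how many animals it pooled is not stated in the labels. The receptor was supplied by the virus, so the sites are those of added TRβ1 in liver that lacked newly made hormone. Whole liver was used, so binding in different liver cells cannot be told apart, and the lists hold no expression values against which to check the tissue.

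TRβ1 is a nuclear receptor that binds DNA with and without hormone, commonly as a partner of RXR on pairs of the half-site AGGTCA. On genes that hormone induces, the receptor without hormone is known to recruit corepressors, and T3 exchanges these for coactivators. Thrsp (Spot 14) is a nuclear protein of lipid synthesis and Me1 is the cytosolic malic enzyme, which supplies NADPH for it. Dio1 is the liver deiodinase that converts thyroxine to T3. Klf9 is a zinc-finger transcription factor, and Hr (hairless) is a corepressor that itself binds thyroid hormone receptors. All of them are textbook responders to T3. The comparison between TRb PTU and TRb T3 addresses whether the receptor sits at the same places around these genes in both hormone states.

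The letters next to the gene starts are shown first, since these are the only sequences of the 5 loci used here. They come from RefSeq on build GRCm38.p6, whose coordinates differ from those of the mm9 peaks, so no peak is placed on them and no peak sequence was searched. Of the 5 genes, 4 had an entry, and Hr had none. Each run is the 250 bases before the start, 5′ to 3′ on the strand of the gene, from chr7:97417551-97417800 (minus) for Thrsp, chr4:107307169-107307418 (minus) for Dio1, chr9:86695915-86696164 (minus) for Me1, the first of its 2 starts, and chr19:23140976-23141225 (plus) for Klf9. Capitals mark the half-site letters AGGTCA or GGGTCA on either strand.
Thrsp: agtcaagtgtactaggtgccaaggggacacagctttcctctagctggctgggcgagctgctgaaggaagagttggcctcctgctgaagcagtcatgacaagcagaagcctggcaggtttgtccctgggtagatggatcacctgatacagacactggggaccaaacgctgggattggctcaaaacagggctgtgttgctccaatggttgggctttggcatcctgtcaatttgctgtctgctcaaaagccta
Dio1: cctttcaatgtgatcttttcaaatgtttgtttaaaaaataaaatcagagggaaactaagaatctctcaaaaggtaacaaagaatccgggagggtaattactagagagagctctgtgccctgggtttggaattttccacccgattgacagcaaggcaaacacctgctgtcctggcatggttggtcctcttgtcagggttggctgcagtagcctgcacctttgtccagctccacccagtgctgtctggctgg
Me1: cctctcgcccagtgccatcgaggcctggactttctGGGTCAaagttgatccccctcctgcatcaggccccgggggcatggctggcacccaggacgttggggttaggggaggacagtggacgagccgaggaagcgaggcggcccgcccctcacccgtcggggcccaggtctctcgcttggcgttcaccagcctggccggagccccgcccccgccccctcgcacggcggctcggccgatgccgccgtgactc
Klf9: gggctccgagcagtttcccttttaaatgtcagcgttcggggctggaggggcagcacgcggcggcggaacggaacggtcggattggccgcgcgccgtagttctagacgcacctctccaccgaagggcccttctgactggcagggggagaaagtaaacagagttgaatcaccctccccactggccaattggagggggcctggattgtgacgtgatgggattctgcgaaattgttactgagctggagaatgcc
Capitals occur at 1 place, GGGTCA in the Me1 run, from 215 to 210 bases before the start. AGGTCA was found in 0 of these 4 runs and in 14.0% of the 32851 RefSeq promoter stretches of that length, and GGGTCA in 11.6% of them. The paired forms were searched on both strands as well, and any match to them also counts as a match to AGGTCA. The direct repeat of AGGTCA spaced by 4 bases was in 0 of the 4 runs and 0.0152% of all stretches, the everted repeat spaced by 6 bases in 0 of 4 and 0.00304%, and the palindrome without a spacer in 0 of 4 and 0 of 32851. Among 30 other liver or hormone-related genes, 23 had an entry. AGGTCA was present at 6 of these, namely Cpt1a, which imports fatty acids into mitochondria, G6pc, which releases glucose, the receptor genes Thrb and Rxra, the growth factor gene Igf1 and Upp2, a uridine phosphorylase. GGGTCA was present at 2, Fasn and Rxra, and the direct repeat at 0 of the 23. A gene counted if any of its stretches matched, and Thrb, Rxra and Upp2 had 2 each. The counts per gene are therefore not comparable with the 14.0% and 11.6% per stretch. These matches are letters only and say nothing about binding. Only exact letters were searched, so half-sites or repeats that depart from them by a base were not counted. A count of 0 thus does not show that a run lacks a receptor element.

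At Thrsp, Dio1, Klf9 and Hr both lists held 3.23 to 9.37 times as many peaks as an average window of the same length, and at Me1 1.10 (TRb PTU) and 2.24 times (TRb T3). Over the 5 windows TRb PTU had 4.24 times and TRb T3 4.47 times the number of peaks that windows of the same lengths held on average over chromosomes 1 to 19 and X. These averages cover all windows, with or without genes, and the median window held 0 or 1 peaks. At the length of the Thrsp window, 13024 of 23940 windows held 0 TRb PTU peaks. Windows around other genes were not compared, so the values do not set these genes apart from other liver genes. The genes and windows were also chosen with earlier results of these data known, so the multiples and shares of windows are descriptive and test nothing. The Hr window was the fullest, with 24 TRb PTU peaks in 130 kb against a mean of 2.56 and 16 TRb T3 peaks against 2.27. Only 0.410% of the 20261 windows of that length held as many TRb PTU peaks, and 1.55% as many TRb T3 peaks. Extended by 50 kb at both ends, the Hr window held 25 and 17 peaks, so its set limits enclose a cluster closely. Dio1 had 12 peaks in each list (means 2.36 and 2.10), reached by 4.71% and 3.29% of windows. Thrsp had 7 TRb PTU and 12 TRb T3 peaks (means 2.17 and 1.92), reached by 11.5% and 2.69% of windows. Klf9 was ordered the other way, with 13 TRb PTU and 8 TRb T3 peaks (means 2.76 and 2.44), reached by 5.29% and 10.9%. Me1 was close to the average in TRb PTU, with 5 peaks in 230 kb against a mean of 4.53, and had 9 TRb T3 peaks against 4.01. As many were held by 31.6% and 17.9% of windows of that length.

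**Figure D1:**
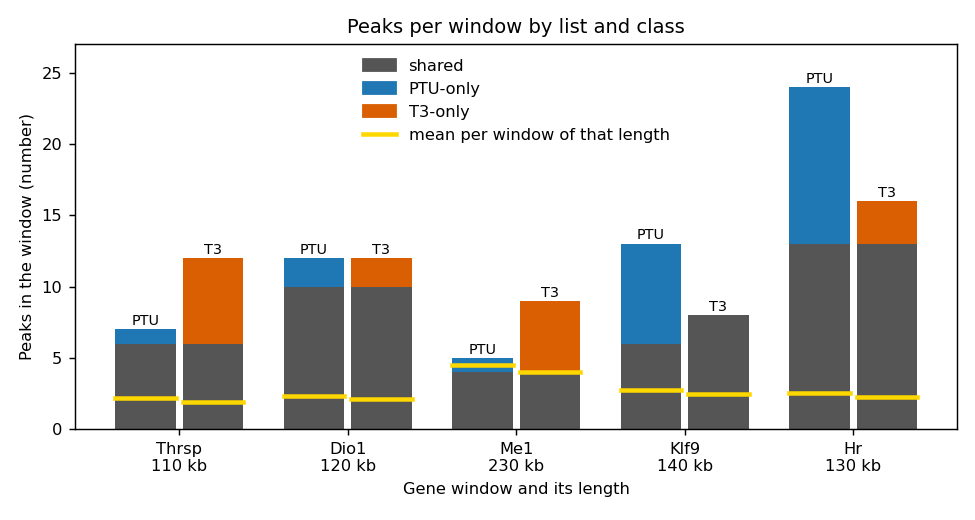
Number of peaks (vertical axis) in each gene window (horizontal axis, with its length) for TRb PTU, left bar, and TRb T3, right bar, split into peaks shared between the lists, PTU-only and T3-only peaks, with the mean of windows of the same length as a yellow line. The Hr bars reach 24 and 16 peaks, and the Me1 TRb PTU bar, with 5, lies near its mean of 4.53.

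**Figure D2:**
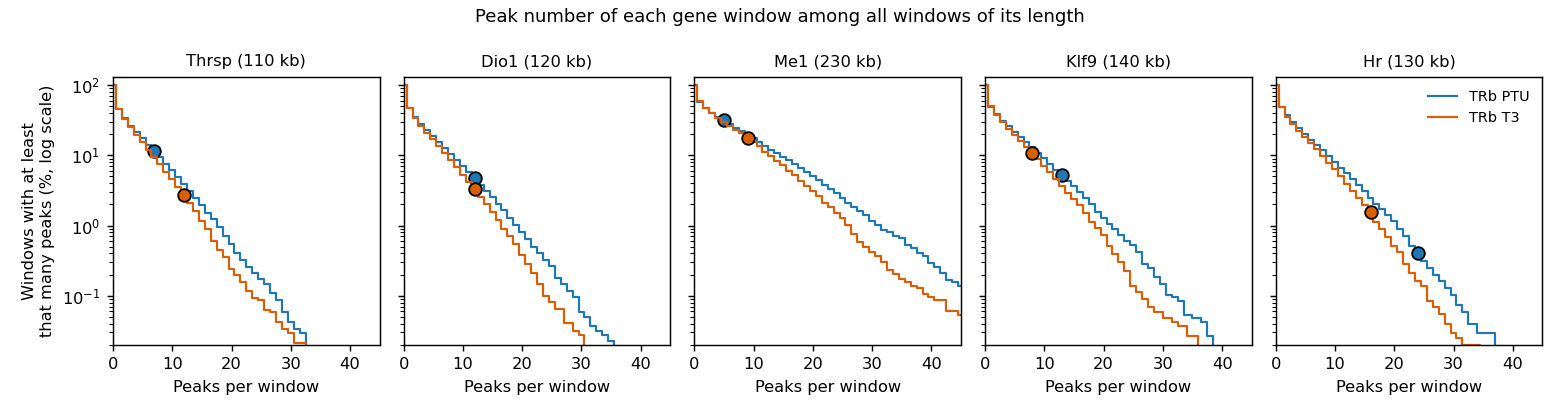
Share of all genome windows of the same length (vertical axis, percent on a log scale) that held at least the number of peaks on the horizontal axis, for TRb PTU and TRb T3. Filled points mark the gene windows themselves, from 31.6% for TRb PTU at Me1 down to 0.410% for TRb PTU at Hr.

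GFP PTU gave 0 peaks in the windows and 0 when each was extended by 50 kb at both ends. With 107 GFP PTU peaks in all, 0.0294 would be the average for windows of these lengths, so an empty count carries little information. The read depth behind the lists is unknown, and fewer peaks in a list cannot be told apart from fewer reads. With 1 library per condition there is no spread between animals to set a difference against, so no test between conditions is given. Exact (Clopper-Pearson) 95% intervals below are over peaks and cover counting error only.

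Most peaks of each list around these genes overlapped a peak of the other list, as did most peaks of the whole lists. A peak was shared if it overlapped a peak of the other list by at least 1 bp. Of the 61 TRb PTU peaks, 22 were PTU-only, against 46.1% of that whole list, and 39 were shared (63.9%, interval 50.6 to 75.8%, whole list 53.9%). Of the 57 TRb T3 peaks, 16 were T3-only, against 38.7% of that whole list, and 41 were shared (71.9%, interval 58.5 to 83.0%, whole list 61.3%). Both intervals hold the value of the whole list, so the difference from the rest of the lists was within counting error. Joined where they overlap, the 118 peaks make 77 sites, of which 39 were shared, 22 PTU-only and 16 T3-only. A shared site puts a peak in each list, so shared ones weigh more among peaks than among sites. Shared sites were 6 of 13 at Thrsp, 10 of 14 at Dio1 and 4 of 10 at Me1. They were 6 of 13 at Klf9 and 13 of 27 at Hr. The share of sites that were shared was not computed over the whole lists, so these counts have no background beside them.

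Which list held more peaks varied from gene to gene, but within counting error of the whole lists. TRb T3 gave 63.2% of the peaks of both lists at Thrsp (interval 38.4 to 83.7%) and 64.3% at Me1 (35.1 to 87.2%). The share was 50% at Dio1 (29.1 to 70.9%), 38.1% at Klf9 (18.1 to 61.6%) and 40.0% at Hr (24.9 to 56.7%). All 5 intervals hold the 47.0% of the whole lists. Many sites were counted in both lists, so the peaks are not independent and these intervals are only a rough guide. Sites of a single list were 1 PTU-only and 6 T3-only at Thrsp, and 2 and 2 at Dio1. They were 1 and 5 at Me1, 7 and 0 at Klf9, and 11 and 3 at Hr. Over the whole lists 23982 peaks were PTU-only and 17816 T3-only, so PTU-only peaks are the more common kind everywhere.

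Sites of a single list were mostly weak ones, as single-list peaks were over the whole lists. The authors' caller gave each peak a score, whose statistic is not stated, and it is used here only as a percentile, the percentage of peaks of the same list with a lower score. In these whole-list percentiles pairs of shared peaks stood a median of -3.22 points apart over the genome (TRb T3 minus TRb PTU), with 11542 of 27010 single pairs higher in TRb T3, so a lower value in TRb T3 is the more common case everywhere. The PTU-only members had a median percentile of 27.4 and the shared TRb PTU members 80.4, against 32.5 and 67.6 over the whole list. The T3-only members had a median of 31.1 and the shared TRb T3 members 65.0, against 34.0 and 61.5. Above the 90th percentile of its list stood 13 TRb PTU members (21.3%, interval 11.9 to 33.7%), beside the 10.0% that this cut-off takes from any list. In TRb T3 it was 10 members (17.5%, interval 8.75 to 29.9%), beside the same 10.0%, which lies within that interval. All 23 of these high-ranking peaks were shared, beside 94.4% of the peaks above that cut-off in the whole TRb PTU list and 91.3% in TRb T3, so this is near the background. They came from Thrsp, Dio1, Klf9 and Hr, with 0 from Me1.

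**Figure D3:**
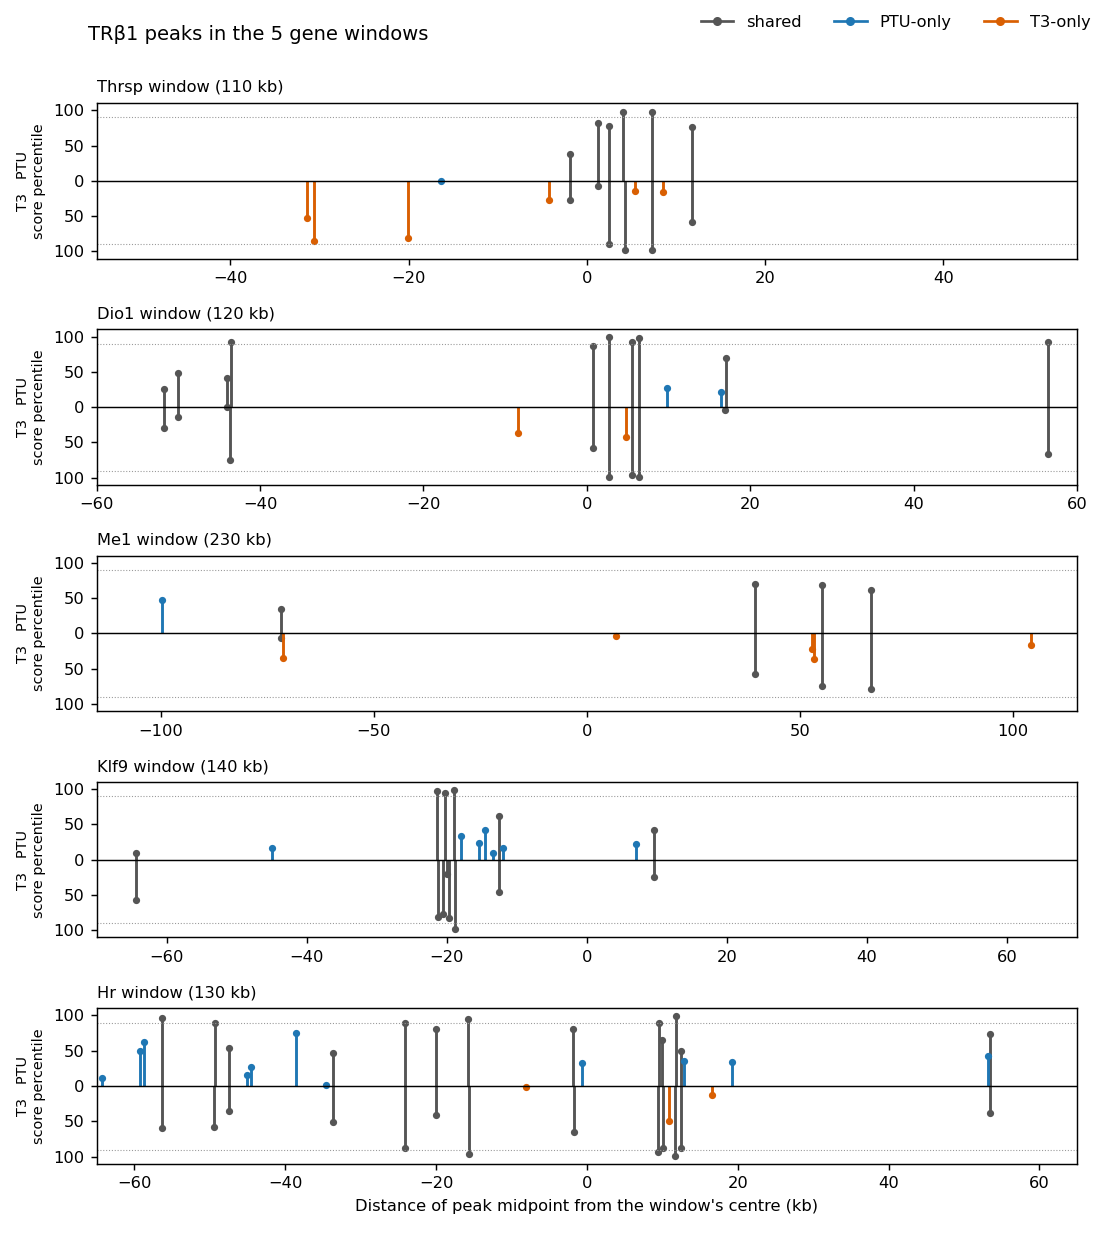
Peaks of the 5 gene windows by the distance of their midpoint from the centre of the window (kb, horizontal axis) and their score percentile within their own list (vertical axis, TRb PTU upwards and TRb T3 downwards), with dotted lines at the 90th percentile. Grey peaks were shared, blue ones PTU-only and orange ones T3-only, and the 23 peaks beyond the dotted lines are all grey.

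The Thrsp peaks lay in a 43.5 kb stretch of the 110 kb window, and the 2 strongest were equally high in rank with and without T3. In the table of RefSeq genes the protein-coding neighbours of Thrsp are Ndufc2 and Alg8 on one side and Kctd14 and Ints4 on the other. Which gene a peak belongs to was not analysed here. The first of the strong sites was chr7:104568940-104569203 in TRb PTU, 264 bp wide, at percentile 97.8. In TRb T3 it was chr7:104568939-104569633, 695 bp wide, at percentile 97.4. The left edges were 1 bp apart while the TRb T3 peak ran further to the right, and the midpoints were 214.5 bp apart, the longest distance among the pairs of the 5 windows in which each peak met a single peak of the other list. The other strong site, the highest-scored shared one of the window, was chr7:104572001-104572609 in TRb PTU (609 bp, percentile 98.1) and chr7:104572057-104572588 in TRb T3 (532 bp, percentile 97.5).

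The other 4 shared sites at Thrsp did not keep their rank to the same degree. At chr7:104567273-104567588 (316 bp) in TRb PTU and chr7:104567266-104567626 (361 bp) in TRb T3 the percentile was 77.6 and 90.1. The site next to it differed the other way, at chr7:104566019-104566412 (394 bp, percentile 81.6) in TRb PTU and chr7:104566117-104566368 (252 bp, percentile 6.72) in TRb T3. Closely spaced sites of this locus thus differed in opposite directions. The remaining shared sites were chr7:104563062-104563244 (183 bp, percentile 38.4) with chr7:104563063-104563201 (139 bp, 27.8), and chr7:104576703-104576920 (218 bp, 75.8) with chr7:104576718-104576889 (172 bp, 58.0).

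Thrsp had 6 T3-only sites and 1 PTU-only site. Of its TRb T3 peaks 50% were shared (interval 21.1 to 78.9%, whole list 61.3%). Of its TRb PTU peaks 85.7% were shared (interval 42.1 to 99.6%, whole list 53.9%). The highest-scored T3-only peak was chr7:104534317-104534534, 218 bp wide, at percentile 85.4, with the nearest TRb PTU midpoint 14175 bp away. It was the highest-ranking single-list peak of all 5 windows. Beside it was chr7:104533444-104533643 (200 bp, percentile 52.8), and chr7:104544860-104545035 followed (176 bp, percentile 80.4). These 3 stood apart from the shared sites, on the low-coordinate side of the window. The other T3-only peaks lay among or next to the shared sites and ranked low, at chr7:104560681-104560873 (193 bp, percentile 26.8), chr7:104570344-104570493 (150 bp, 13.9) and chr7:104573467-104573601 (135 bp, 15.6). The PTU-only peak was chr7:104548531-104548670 (140 bp), at percentile 0.119, near the bottom of its list.

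Dio1 had the most even picture, with 10 shared, 2 PTU-only and 2 T3-only sites. In each list 83.3% of its peaks were shared (interval 51.6 to 97.9%), beside 53.9% of the whole TRb PTU list and 61.3% of TRb T3. Its protein-coding neighbours are Hspb11 and Lrrc42 on one side and Yipf1 and Ndc1 on the other. A core of 3 sites ranked above the 90th percentile in both lists. The first was chr4:106972577-106972878 (302 bp, percentile 98.7) in TRb PTU and chr4:106972623-106972893 (271 bp, 98.3) in TRb T3. The second was chr4:106975247-106975868 (622 bp, 92.4) and chr4:106975272-106975793 (522 bp, 95.6). The third was chr4:106976237-106976491 (255 bp, 97.5) and chr4:106976236-106976563 (328 bp, 99.2), the highest-scored shared site of the window. These 3 sites spanned 3987 bp. Since a percentile above 90 in both lists singled them out, their ranks could differ only slightly between the hormone states.

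Of the other 7 shared Dio1 sites, 6 had a lower percentile in TRb T3 and 1 a higher one. At chr4:107026248-107026656 (409 bp) in TRb PTU and chr4:107026277-107026539 (263 bp) in TRb T3 the percentile was 92.4 and 65.8. At chr4:106926177-106926600 (424 bp) and chr4:106926210-106926405 (196 bp) it was 92.6 and 74.5. At chr4:106986806-106987142 (337 bp) and chr4:106986852-106987073 (222 bp) it was 70.1 and 3.54. The same order held for 3 more pairs. They were chr4:106970632-106970864 (233 bp, 86.0) with chr4:106970644-106970870 (227 bp, 57.9), chr4:106919849-106920049 (201 bp, 48.1) with chr4:106919868-106920016 (149 bp, 14.1), and chr4:106925790-106926016 (227 bp, 41.3) with chr4:106925809-106925973 (165 bp, 0.0206). The exception was chr4:106918145-106918317 (173 bp, 25.2) with chr4:106918203-106918353 (151 bp, 29.5).

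The single-list peaks at Dio1 were all below the median of their list. The higher T3-only peak was chr4:106974544-106974952, 409 bp wide, at percentile 42.5, with a TRb PTU midpoint 809.5 bp away, between sites of the core. The other was chr4:106961513-106961674 (162 bp, percentile 36.6). The higher PTU-only peak was chr4:106979769-106979911 (143 bp, percentile 27.4), and the other was chr4:106986309-106986468 (160 bp, 21.7).

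Me1 was the sparsest of the 5 loci, and its peaks reached neither the highest ranks nor large widths. The protein-coding neighbours of Me1 are Rwdd2a and Pgm3 on one side and Prss35 and Snap91 on the other. The 10 sites were spread over 204 kb with a gap of 77.8 kb between chr9:86463905 and chr9:86541684, and the median gap between neighbouring sites was 13151 bp, against 706.5 bp at Klf9 and 2362 bp at Hr. All TRb T3 peaks were at most 224 bp wide and all TRb PTU peaks at most 317 bp. Both lists had 0 peaks above the 90th percentile, 0 of 5 in TRb PTU and 0 of 9 in TRb T3, for which the intervals allow shares of up to 52.2% and 33.6%.

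Of the 4 shared sites at Me1, 2 ranked higher in TRb T3. The highest-scored was chr9:86601516-86601685 (170 bp, percentile 61.8) in TRb PTU and chr9:86601481-86601704 (224 bp, 79.1) in TRb T3. The next was chr9:86589993-86590196 (204 bp, 68.2) and chr9:86590009-86590206 (198 bp, 74.3). Lower in TRb T3 were chr9:86574459-86574619 (161 bp, 70.1) with chr9:86574457-86574635 (179 bp, 57.6), and chr9:86463092-86463408 (317 bp, 34.3) with chr9:86463281-86463412 (132 bp, 6.72).

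Single-list peaks at Me1 were mostly T3-only, 5 against 1. Of its TRb T3 peaks 44.4% were shared (interval 13.7 to 78.8%, whole list 61.3%). Of its TRb PTU peaks 80.0% were shared (interval 28.4 to 99.5%, whole list 53.9%). The highest-scored T3-only peak was chr9:86588139-86588277 (139 bp, percentile 36.4), and chr9:86587787-86587971 (185 bp, 22.5) lay next to it. The others were chr9:86463744-86463904 (161 bp, 35.4), chr9:86639138-86639270 (133 bp, 16.0) and chr9:86541685-86541866 (182 bp, 4.04). The PTU-only peak was chr9:86435246-86435441 (196 bp, percentile 46.7), with the nearest TRb T3 midpoint 28003 bp away. All 6 were below the median of their list.

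Klf9 had a compact block in which TRb PTU peaks were more numerous and wider. Its protein-coding neighbours are Trpm3 and Cemip2 on one side and Smc5 and Mamdc2 on the other. All 8 TRb T3 peaks met a TRb PTU peak (interval 63.1 to 100%, whole list 61.3%). Of the 13 TRb PTU peaks 7 were PTU-only and 46.2% were shared (interval 19.2 to 74.9%, whole list 53.9%). The highest-scored shared site was chr19:23210804-23211355 (552 bp, percentile 99.4) in TRb PTU and chr19:23210966-23211304 (339 bp, 98.1) in TRb T3. It stood in the top 2% of both lists, and the TRb T3 peak lay inside the TRb PTU peak.

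Next to it was the widest peak of the 5 windows, chr19:23208906-23210610 in TRb PTU, 1705 bp wide, at percentile 95.2. In TRb T3 the same stretch was called as 3 peaks, chr19:23209356-23209689 (334 bp, percentile 77.0), chr19:23209893-23210033 (141 bp, 19.96) and chr19:23210157-23210594 (438 bp, 82.8). Together they cover 913 bp of it. In the whole list 4 TRb PTU peaks were at least 1700 bp wide, and 15 of 51992 met 3 or more TRb T3 peaks. A further strong site beside it was chr19:23208498-23208829 (332 bp, percentile 97.3) in TRb PTU and chr19:23208580-23208778 (199 bp, 80.7) in TRb T3.

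The other shared sites at Klf9 were weaker. They were chr19:23217315-23217534 (220 bp, 61.4) with chr19:23217342-23217514 (173 bp, 45.2), chr19:23239494-23239663 (170 bp, 41.9) with chr19:23239477-23239615 (139 bp, 24.1), and chr19:23165490-23165623 (134 bp, 9.94) with chr19:23165490-23165664 (175 bp, 57.0). The last was the only Klf9 pair that ranked higher in TRb T3. There were 7 PTU-only peaks, all below the median of their list. The highest-scored was chr19:23215236-23215723, 488 bp wide, at percentile 42.3, with the nearest TRb T3 midpoint 1948.5 bp away. Of the others, 4 also lay within the block, at chr19:23211877-23212075 (199 bp, 33.6), chr19:23214396-23214664 (269 bp, 23.8), chr19:23216445-23216622 (178 bp, 9.94) and chr19:23218003-23218136 (134 bp, 17.0). The remaining 2 were chr19:23184984-23185140 (157 bp, 16.3) and chr19:23237011-23237150 (140 bp, 22.5).

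Hr had the most sites, 27, of which 13 were shared, 11 PTU-only and 3 T3-only, spread over 118 kb. Of its TRb PTU peaks 54.2% were shared (interval 32.8 to 74.4%, whole list 53.9%). Of its TRb T3 peaks 81.25% were shared (interval 54.4 to 96.0%, whole list 61.3%). The protein-coding neighbours of Hr are Reep4 and Lgi3 on one side and Nudt18 and Fam160b2 on the other. The highest-scored shared site was chr14:70976638-70976929 (292 bp, percentile 99.1) in TRb PTU and chr14:70976494-70976973 (480 bp, 98.6) in TRb T3. It was one of 4 shared sites within 3439 bp, all 4 wider in TRb T3. The other 3 also ranked higher in TRb T3. They were chr14:70977353-70977584 (232 bp, 49.99) with chr14:70977331-70977619 (289 bp, 87.4), chr14:70974798-70975020 (223 bp, 64.8) with chr14:70974784-70975283 (500 bp, 87.1), and chr14:70974485-70974694 (210 bp, 88.9) with chr14:70974181-70974684 (504 bp, 92.8).

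Elsewhere in the Hr window the order was mostly the reverse. The widest TRb PTU peak of the window, chr14:70908404-70909039 (636 bp), stood at percentile 96.8, and its TRb T3 partner chr14:70908480-70908776 (297 bp) at 59.5. At chr14:70915427-70915889 (463 bp) and chr14:70915413-70915798 (386 bp) the percentile was 89.1 and 58.1. At chr14:70944926-70945180 (255 bp) and chr14:70944951-70945087 (137 bp) it was 80.7 and 41.5. Also lower in TRb T3 were chr14:71018359-71018628 (270 bp, 73.6) with chr14:71018396-71018624 (229 bp, 38.3), chr14:70963061-70963303 (243 bp, 80.4) with chr14:70963115-70963345 (231 bp, 65.0), and chr14:70917480-70917664 (185 bp, 53.3) with chr14:70917476-70917623 (148 bp, 35.6).

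A strong site of similar rank in both lists was chr14:70949140-70949403 (264 bp, 94.5) with chr14:70949170-70949446 (277 bp, 95.9), though peaks this high have little room to move up. Nearly level as well were chr14:70940701-70940989 (289 bp, 89.8) with chr14:70940767-70940985 (219 bp, 88.0), and chr14:70931227-70931486 (260 bp, 46.4) with chr14:70931255-70931483 (229 bp, 50.7).

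Among the 11 PTU-only peaks at Hr the highest-scored was chr14:70926354-70926570, 217 bp wide, at percentile 74.9, the highest of the 22 PTU-only peaks of the 5 windows. The nearest TRb T3 midpoint was 4907 bp away. Then came chr14:70906212-70906426 (215 bp, 62.9) and chr14:70905604-70905755 (152 bp, 50.2). The other 8 were below the median of their list, at chr14:71018009-71018291 (283 bp, 42.5), chr14:70977845-70978025 (181 bp, 35.9), chr14:70984198-70984348 (151 bp, 34.3), chr14:70964249-70964396 (148 bp, 33.0), chr14:70920416-70920556 (141 bp, 27.4), chr14:70919868-70920002 (135 bp, 16.3), chr14:70900605-70900748 (144 bp, 10.9) and chr14:70930316-70930482 (167 bp, 1.499). Of the T3-only peaks, chr14:70975789-70975941 (153 bp, percentile 48.8) was the highest-scored and lay among the 4 neighbouring shared sites. The others were chr14:70981546-70981677 (132 bp, 13.1) and chr14:70956825-70956998 (174 bp, 1.17).

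Across the 5 genes, 38 pairs could be followed in which each peak met a single peak of the other list. To put both hormone states on the same footing, their scores were ranked among the 27010 such pairs of the whole lists. Of the 38 pairs, 26 ranked higher in TRb PTU (68.4%, whole lists 51.1%) and 12 in TRb T3 (31.6%, whole lists 48.9%). The median TRb T3 minus TRb PTU percentile was -5.60 points, against -0.509 over the whole lists, with a range from -65.3 to 49.9. By gene the pairs higher in TRb T3 were 1 of 6 at Thrsp, 3 of 10 at Dio1, 2 of 4 at Me1, 1 of 5 at Klf9 and 5 of 13 at Hr. At these hormone-induced genes shared sites were thus not ranked higher as a rule after T3. Pairs of a locus share the same chromatin and the same 2 libraries, so they are not replicates and no test is given.

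The highest-scored shared site of each window was picked by its TRb T3 score, which is also one side of the comparison. At Thrsp, Dio1, Klf9 and Hr the highest-scored shared site differed by -0.522, 3.27, -2.05 and -0.618 percentile points among the pairs, respectively. At Me1 the site highest in TRb T3 differed by 26.9, and the site highest in TRb PTU, chr9:86574459-86574619, by -7.87, so the direction there turns with the list used to pick the site. The extremes were -65.3 at the Thrsp site chr7:104566019-104566412 and 49.9 at the Hr site chr14:70977353-70977584. Peaks at the top of a list have little room to move up, which limits what a rank can show there.

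**Figure D4:**
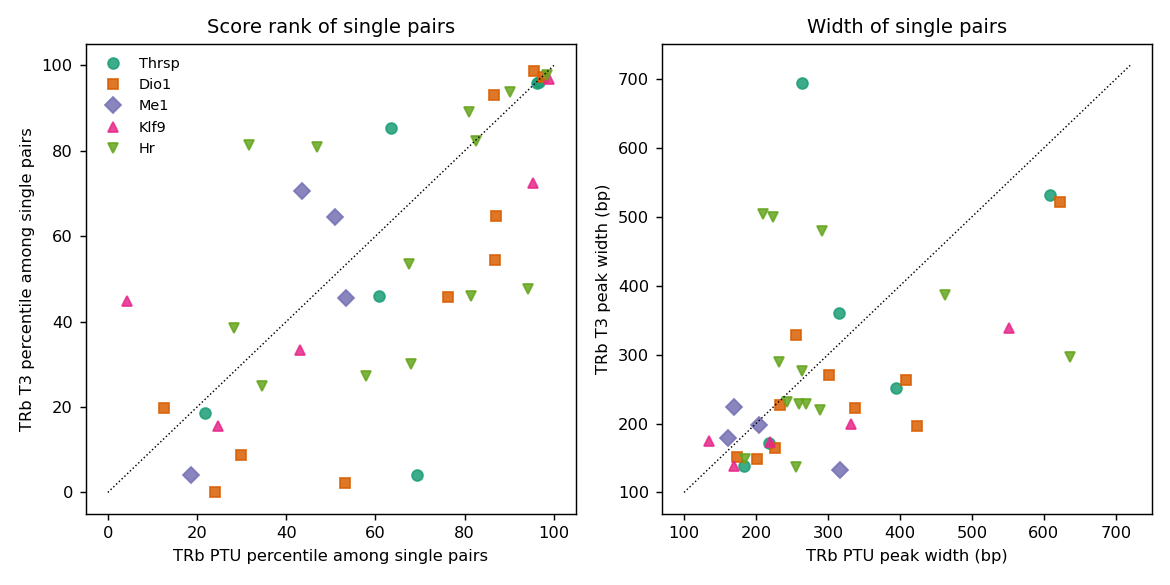
Left, percentile of the score among single pairs in TRb PTU (horizontal axis) and TRb T3 (vertical axis) for the 38 pairs of the 5 windows, and right, the widths of the same peaks in bp, with the line of equal values dotted. On the left 26 points lie below the line and 12 above it, and on the right 27 lie below it and 11 above.

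Widths and positions were read from the same pairs. The TRb PTU peak was the wider one in 27 of 38 pairs (71.1%, whole lists 59.7%), including 9 of 10 at Dio1 and 4 of 5 at Klf9. The midpoints of a pair were a median of 26.0 bp apart, against 18.5 bp over the whole lists. The median width of all members was 220 bp for TRb PTU against 199 bp for TRb T3, and of the whole lists 210 and 193 bp. At least 600 bp were reached by 4 TRb PTU members, 1 each at Thrsp, Dio1, Klf9 and Hr, and by 1 TRb T3 member, at Thrsp. In the whole lists 2.56% of TRb PTU and 1.26% of TRb T3 peaks were that wide.

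The pairs were also counted by their place along the locus. In each window the 10 kb with the most site midpoints was taken, after the values had been seen. It held 6 of the 13 sites at Thrsp (chr7:104560681-104570493), 6 of 14 at Dio1 (chr4:106970632-106979911), 9 of 13 at Klf9 (chr19:23208498-23218136), 8 of 27 at Hr (chr14:70974181-70984348) and 3 of 10 at Me1 (chr9:86587787-86590206). Inside these stretches 7 of 16 pairs ranked higher in TRb T3, with a median difference of -0.235 points, and outside them 5 of 22, with a median of -14.4 points. At Hr 3 of 4 pairs inside and 2 of 9 outside ranked higher in TRb T3, at Me1 1 of 1 and 1 of 3, at Dio1 2 of 4 and 1 of 6, and at Thrsp 1 of 4 and 0 of 2. Klf9 ran the other way, with 0 of 3 inside and 1 of 2 outside. The stretches also held 8 of the 13 TRb PTU and 8 of the 10 TRb T3 members above the 90th percentile, whose ranks have little room to differ, so the values describe these stretches and do not show that ranks were more stable there.

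Crowding was counted from the peaks themselves as well, which restates the window counts above and is not independent of them. At least 3 other peaks of the same list had their midpoint within 5 kb for 25 of the 61 TRb PTU members (41.0%, whole list 17.2%) and 22 of the 57 TRb T3 members (38.6%, whole list 15.8%). Klf9 contributed 9 of its 13 TRb PTU peaks and 5 of its 8 TRb T3 peaks, and Me1 contributed 0 in either list.

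Some peaks lay close to the edges of the windows. The first and last peaks of a list inside a window lay 0.676 to 60.5 kb from its edges, and the nearest peaks outside lay 8.08 to 267 kb beyond. The member closest to an edge was the PTU-only peak chr14:70900605-70900748 at Hr.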

How the data were processed

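The labels describe 6 samples, of which the 3 ChIP samples gave peak lists and the 3 inputs were not analysed here. Per the submitters' processing notes, Bowtie, SAMtools and MACS2 and the build mm9 were used, with versions, filtering, the control library and settings not given in the sources used here. Each deposited peak carries a score from the authors' caller, at least 2.00 in all 3 lists. Depth is unknown, since the lists give no read counts. Groups were taken from the sample titles.

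From these lists, peaks were assigned to a window by midpoint and classed by an overlap of at least 1 bp. Window means came from a grid of windows of the same length, starting at position 1 of chromosomes 1 to 19 and X and ending with the last peak. Percentiles used mid-ranks. Every peak in the windows is named, with the highest-scored shared site by TRb T3 score, PTU-only peak and T3-only peak described in full. The genes, windows and lists were chosen with earlier results of these data known. GGGTCA was added to the letters searched later. Where peaks lie within or beside genes, and the letters under them, were not analysed here, since mm9 annotation and sequence were not used. The overlap and window code was tested on simulated data. Alternatives for overlap, score, list length, GFP sites, windows and ranks were run. The software was Python 3.11.15 with scipy 1.17.1, numpy 2.4.6, pandas 2.3.3 and matplotlib 3.10.9.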

Additional observations from a re-analysis of the deposited data

How the results depend on the processing

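No paired analysis was possible because the conditions have a single library apiece. Keeping only the upper-scored part of both lists, from the median up, left 33 TRb PTU peaks (61 with all) and 31 TRb T3 peaks (57 with all) in the 5 windows. The other 26 comparisons of the totals and shares stayed within 1.5 times or within the interval. The shared percentage ran from 60.7 to 72.7% in TRb PTU and from 64.9 to 80.6% in TRb T3, and the median rank difference moved from -5.60 to -11.6 points with ranks within the whole lists, where all single pairs had -3.22 points (-0.509 in the ranks among pairs). For single windows 15 of 30 counts moved by over 1.5 times, each with fewer peaks or another window by construction. With the score filter TRb PTU and TRb T3 peaks numbered 5 and 7 at Thrsp, 7 and 6 at Dio1, 3 and 3 at Me1, 4 and 5 at Klf9 and 14 and 10 at Hr. The excess of TRb PTU peaks at Klf9 (13 against 8) and of TRb T3 peaks at Me1 (5 against 9) was thus made of peaks below the median. Extending the windows by 50 kb at both ends gave 21 and 17 peaks at Klf9 and 19 and 18 at Dio1, and shortening them by 20 kb gave 7 and 7 at Dio1 and 15 and 12 at Hr.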
